A study of Mus musculus with 12 samples.

Results

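The genes described here encode the 5 classes of histone protein, and were chosen by name: every gene of the deposited table whose symbol begins with H1f, H2ac, H2bc, H3c or H4c followed by a digit. The rule took 59 of the 17901 genes: 9 H1, 13 H2A, 14 H2B, 12 H3 and 11 H4 genes. They were measured in TT2 cells, a mouse embryonic stem (ES) cell line, grown on gelatin in a medium with serum replacement and fetal bovine serum. WT cells and cells lacking both Rlf and Zfp292 (DKO, double knockout) were each sampled in medium with LIF (serum/LIF) and after 72 hours in the same medium without LIF and with 5 µM retinoic acid (RA), which gave 4 groups of 3 libraries. All 4 groups shared the cell line and the base medium. The labels call the libraries biological replicates without naming clones or cultures, so p-values measure only the spread between these libraries. They do not say either whether RNA with a poly(A) tail was selected or ribosomal RNA was removed.

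Replication-dependent histone genes supply the histones that package newly made DNA, so their mRNA is known to accumulate in S phase and to be degraded when DNA synthesis stops. Most of them lie in clusters, lack introns, and give mRNAs that end just after a conserved stem-loop in place of a poly(A) tail. The stem-loop is bound by SLBP, and the precursor is cut just after it with the help of the U7 snRNP. NPAT drives transcription of the clusters in histone locus bodies. Some clustered genes are also known to yield polyadenylated mRNA from a downstream site, above all in cells that leave the cell cycle.

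By position (build mm10), 56 of the 59 genes lay in 3 clusters: 8 on chromosome 3 (96220413 to 96270192), 19 in a proximal cluster on chromosome 13 (21715711 to 22043658) and 29 in a distal cluster on the same chromosome (23531044 to 23764412). The other 3 are H1 genes that stand alone: H1f0 on chromosome 15 and H1f10 and H1f8 on chromosome 6. H1f0 and H1f10 are known as replication-independent linker histones with polyadenylated mRNA, and H1f8 as the linker histone of the oocyte. The name rule therefore took more than the class it was written for. Sums below leave the 3 out, but counts of calls and medians over the tested histone genes, and counts for H1 genes, include H1f0 and H1f10. The genes with the most reads lie at chr15:79028212-79030504 (H1f0), chr6:87980421-87981482 (H1f10), chr13:23738807-23739531 (H1f2), chr13:23684199-23692480 (H2bc4, with 2 annotated exons), chr13:22040960-22041362 (H4c9) and chr3:96221072-96223738 (H2bc21).

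The 3′ ends show which annotated transcripts carry the element that defines the class. In the GENCODE M21 transcripts (GRCm38, the same assembly as mm10) a perfect 16-base stem-loop was found after the stop codon in 37 of the 59 genes, in 6 distinct forms. The form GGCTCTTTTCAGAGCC was present in 21 of them. Of the 22 genes without one, 12 have 15 or fewer annotated bases after the stop codon, so the stretch was not there to be searched. H3c13 and H1f1, with 37 and 48 such bases, may also be annotated too short to hold it. H1f0, H1f10, H2bc4 and H2bc21, which have long annotated 3′ ends, had no match. The sites of 4 clustered genes that the results turn on are shown with the stem-loop in capitals, 5′ to 3′ on the strand of the gene.
H1f2: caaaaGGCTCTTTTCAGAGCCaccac
H4c9: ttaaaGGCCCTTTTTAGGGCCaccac
H2ac8: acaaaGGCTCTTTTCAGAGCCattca
H3c3: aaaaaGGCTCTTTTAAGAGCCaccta
The sites lie at chr13:23739507-23739532 (plus strand), chr13:22040961-22040986 (minus), chr13:23570663-23570688 (minus) and chr13:23745042-23745067 (minus). The loop starts 24 bases after the stop codon in H1f2, 30 in H4c9, 32 in H2ac8 and 24 in H3c3. The annotated transcript then runs on for 840 bases in H1f2, 330 in H4c9, 151 in H2ac8 and 74 in H3c3, whereas the deposited gene models of H1f2 (725 bases) and H4c9 (403 bases) end at the stem-loop, so that reads lying wholly beyond it would not be counted.

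Upstream sequences were taken from RefSeq (GRCm38.p6), which held 54 of the 59 genes. H3c7, H4c14, H3c1, H2bc4 and H2bc21 had no entry. Over 250 bases before to 50 bases after the start, on both strands, the TATA box TATAAA was present in 53.7% of the histone promoters and in 14.2% of all 27025 promoters. CCAAT was present in 83.3% against 37.9%, and the octamer ATTTGCAT, the site of the POU factor OCT1, in 18.5% against 1.75%. All 13 H2A, 12 H2B and 10 H3 promoters held CCAAT, and 3 of 10 H4 promoters did. The windows of divergent H2A and H2B partners overlap, so the same motif can be counted for both, as the TATA box between H2ac8 and H2bc8 was. Some counted TATA boxes lie after the start, as in H4c1. The histone shares therefore do not count separate motifs, and their difference from all promoters was not tested. AAACACA, the H1 box, was present in 5 of 9 H1 promoters and in 7.14% of all promoters. The upstream sequences of H1f2, of H1f0, and of the 179 bases that H2ac8 shares with its divergent neighbour H2bc8 are shown because the results below set these genes apart. Capitals mark the motifs just named, on either strand, and each run is given 5′ to 3′ on the strand of its gene and ends at the base before the start site.
H1f2: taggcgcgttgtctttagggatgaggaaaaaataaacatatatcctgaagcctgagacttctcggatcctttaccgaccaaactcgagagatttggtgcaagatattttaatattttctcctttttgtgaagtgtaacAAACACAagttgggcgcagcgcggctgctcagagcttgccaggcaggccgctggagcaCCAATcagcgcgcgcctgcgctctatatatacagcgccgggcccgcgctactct
H1f0: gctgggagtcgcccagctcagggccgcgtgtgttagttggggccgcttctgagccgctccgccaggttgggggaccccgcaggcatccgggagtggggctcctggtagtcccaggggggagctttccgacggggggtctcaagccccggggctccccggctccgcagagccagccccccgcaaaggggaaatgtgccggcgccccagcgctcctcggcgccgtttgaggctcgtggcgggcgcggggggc
H2ac8: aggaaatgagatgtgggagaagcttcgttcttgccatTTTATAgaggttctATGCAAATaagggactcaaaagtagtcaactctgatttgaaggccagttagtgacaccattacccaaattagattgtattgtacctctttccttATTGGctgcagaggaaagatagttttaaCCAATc
The runs lie at chr13:23738557-23738806 (plus strand), chr15:79027962-79028211 (plus) and chr13:23571221-23571399 (minus). H1f2 holds the H1 box 112 bases and CCAAT 54 bases before its start. H1f0 and H1f10 held none of the 4 motifs in this window. Between H2ac8 and H2bc8 the TATA box and the octamer lie on the H2bc8 side, 43 and 59 bases before the H2bc8 start, and the 2 CCAAT boxes lie 34 and 6 bases before the H2ac8 start.

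The libraries held 30869766 to 40236799 reads in genes, of which the 59 genes took 104680 over the 12 libraries. H1f0 (58146 reads) and H1f10 (31890) made up 86.0% of these. Among the 56 clustered genes, which held 14632 reads in all, H1f2 (3577 reads), H2bc4 (2311) and H4c9 (2175) made up 55.1%. The other 53 averaged 10.3 reads per gene and library. In some low genes, such as H2ac15 and H2ac22, the count was even in every library. If both mates of a pair were counted, the fragments behind these reads are fewer, which was not tested. In H1f2, H1f0, H1f10 and H2bc21 no 150-base stretch (the read length) was shared with another annotated gene, but H2A genes of the clusters shared a median of 59.3% of such stretches, H3 genes 38.1%, H2B genes 22.8% and H4 genes 12.5%. How reads that map to several genes were counted is not given in the sources used here, so the low counts of those genes are uncertain. The shares were taken over whole annotated transcripts, which can be longer than the counted gene models (727 against 403 bases in H4c9, 774 against 423 in H4c11). They may therefore understate sharing in the counted part, and they do not rank the types.

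Of the genes with 300 or more reads, 9 have 1 exon, and their levels were ordered per kilobase of gene model. In WT serum/LIF the order was H1f0 (963 normalized reads per kb), H1f10 (952), H4c9 (452), H1f2 (103), H2ac8 (90.2), H3c3 (81.6), H3c8 (53), H4c12 (51.8) and H2bc21 (9.61). After RA in WT it was H1f10 (4416), H1f0 (4202), H1f2 (653), H4c9 (438), H4c12 (88.1), H3c8 (62.9), H3c3 (55.7), H2ac8 (47.1) and H2bc21 (29). The lower 5 genes of this order hold few reads, and the libraries of H2ac8, H3c3, H3c8 and H4c12 in WT spread widely (their values are given below). H1f2 lay below H4c9 in serum/LIF and above it after RA, and in WT the levels of H1f0 and H1f10 differed by less than the SD of H1f10. In DKO, H1f10 was above H1f0 both in serum/LIF (903 and 655 per kb) and after RA (3256 and 2204). Reads, without regard to length, overlapped between classes of annotated 3′ end: the 19 clustered genes whose transcript runs 100 or more bases past the stem-loop had a median of 116 reads, the 18 that end sooner 97.5, the 12 with 15 or fewer bases after the stop codon 85.5, and the 7 with longer 3′ ends but no stem-loop found 181. In many of the 19, such as H4c4 and H1f3, the deposited gene model ends at the stem-loop. Reads lying wholly beyond it were not counted there, so these medians cannot compare the extended ends.

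**Figure D1:**
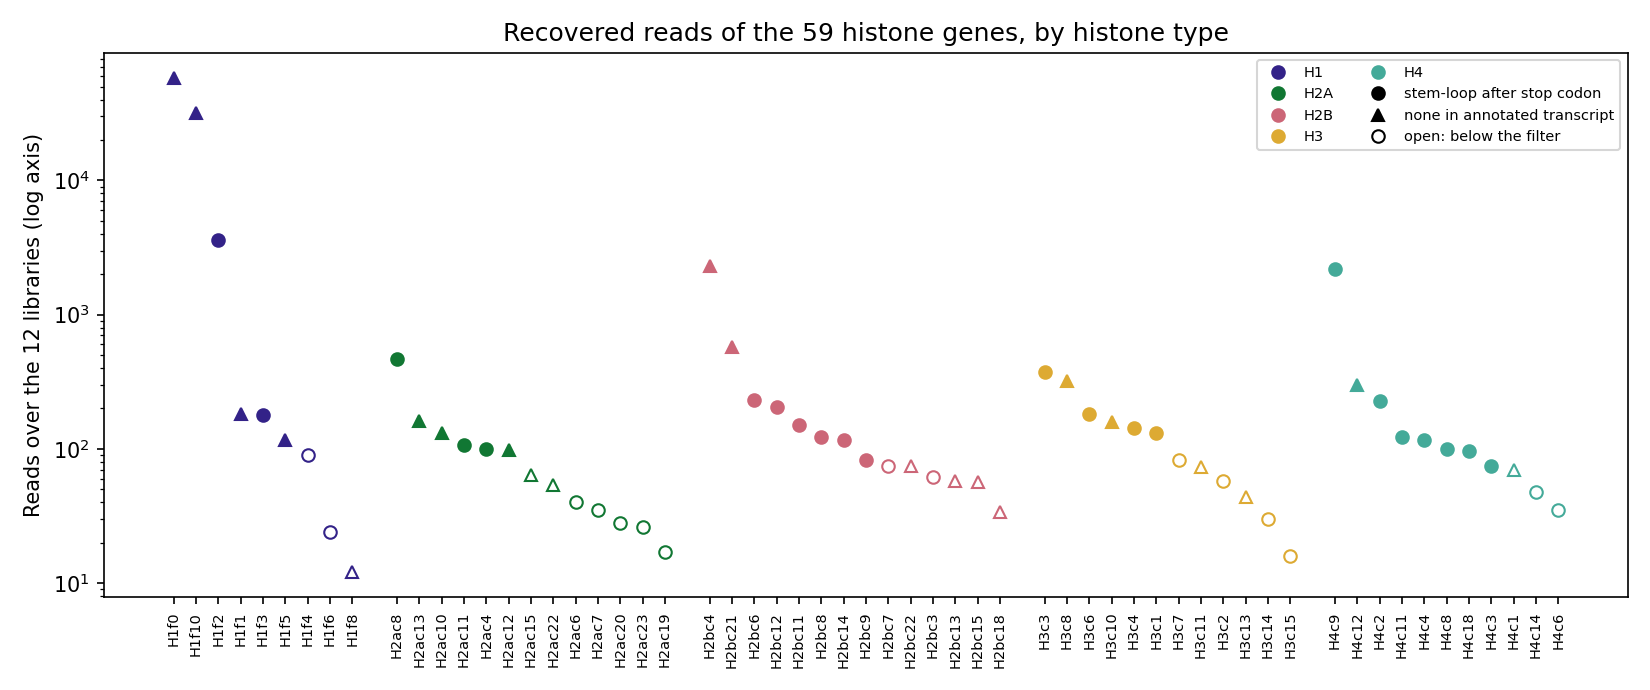
Reads over the 12 libraries (log axis) of each of the 59 histone genes, grouped by histone type. Circles have a stem-loop after the stop codon in the annotated transcript and triangles do not, open symbols were below the filter. H1f0 and H1f10 stand above all others, and H1f2, H2bc4 and H4c9 are the only clustered genes above 1000.

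The labels and cell states were checked first. Rlf had 3701, 3621 and 3510 normalized reads in WT serum/LIF and 0, 3.52 and 3.38 in DKO serum/LIF, and 2627, 2472 and 2733 in WT RA and 0.948, 0 and 0 in DKO RA. Zfp292 had 5273, 4801 and 4652 in WT serum/LIF and 3074, 2859 and 3566 in WT RA, and was at 0 in all 6 DKO libraries. The 8 ES cell markers summed to 154196 to 159272 in WT serum/LIF, 136974 to 140608 in DKO serum/LIF, 5377 to 5889 in WT RA and 10286 to 11146 in DKO RA, so that the DKO kept more of them after RA. The 10 RA response markers summed to 4147 to 4458, 2442 to 2639, 75287 to 78452 and 91205 to 92738 in the same order. The 10 fibroblast markers summed to 5877 to 6026, 16288 to 17446, 43523 to 45220 and 52897 to 55649. None of these markers was at 0 in any group, 9 of the 10 fibroblast markers were higher after RA in either genotype and 7 in DKO against WT in serum/LIF, and their part in the results below was not tested. In bulk RNA, fewer cells of a type and less RNA per cell cannot be told apart. WT RA replicate 2 stood apart: 41.7% of its reads in repeats fell on ribosomal RNA, against 4.14% to 7.28% in the other libraries. Results that change without it are given below.

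Values are normalized read counts (reads divided by the authors' size factor). A gene was tested with limma on log2(value + 1) when its value was 10 or more in at least 3 libraries, which 34 of the 59 genes reached. The 25 others, with 12 to 90 reads over the 12 libraries, were not tested. A low gene could reach this filter through the libraries of 1 condition alone. A gene was called when its p, adjusted by Benjamini-Hochberg over all 15750 genes tested, was under 0.05, and each group of libraries enters 2 of the 4 comparisons, which are therefore not independent. Fold changes (DKO against WT or RA against serum/LIF) are on the log2(value + 1) scale. For low genes this scale can understate a change, or overstate it where single libraries lie near 0. The RA change of H1f3 in WT was 1.05, against 1.09 with edgeR and 1.11 with DESeq2. That of H2ac10 in DKO against WT after RA was -1.81, against -1.57 and -1.60. The SE of a fold change had a median of 0.53 over the 34 histone genes, between 0.05 and 0.94, against 0.09 over all genes.

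In serum/LIF 1 linker histone was lower in DKO than in WT, and no clustered histone gene passed the test. H1f0, the linker histone known to build up in differentiating and resting cells, had 2221, 2264 and 2141 normalized reads in WT and 1424, 1471 and 1613 in DKO. All DKO values lay below all WT values. The WT mean was 1.47 times the DKO mean, and the log2 fold change was -0.56 ± 0.05 (SE, adjusted p = 1.8e-09). H1f0 was the 1 histone gene called lower of 34, where 15.4% of all genes tested were called lower. None was called higher by limma, by edgeR or by DESeq2, and none had an unadjusted p under 0.05 in that direction, where 17.8% of all genes were called higher.

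The other genes with the most reads were not called in serum/LIF. H1f10 had 938, 958 and 1136 in WT and 906, 903 and 1068 in DKO, a fold change of -0.08 ± 0.10 (SE, adjusted p = 0.60), and its groups overlapped. H1f2, the clustered H1 with the most reads, was at 94.5, 70.9 and 58.9 in WT and 51.6, 71.6 and 76.6 in DKO (-0.16 ± 0.18, adjusted p = 0.54), also with overlap. H2bc4, an H2B gene of the distal cluster with a spliced annotated transcript, had 64, 60.2 and 97.3 and 64.2, 86.8 and 69.8 (0.02 ± 0.18, adjusted p = 0.96). H4c9, of the proximal cluster, was at 163, 168 and 215 in WT and 243, 241 and 194 in DKO, with 1 DKO library inside the WT range (0.31 ± 0.16, adjusted p = 0.14). The median fold change over the 34 histone genes was 0.01, against -0.01 over all genes. The count of 1 lower became 2 without WT serum/LIF replicate 1 or without DKO serum/LIF replicate 1, and 1 gene was called higher without WT serum/LIF replicate 1 or without DKO serum/LIF replicate 3.

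**Figure D2:**
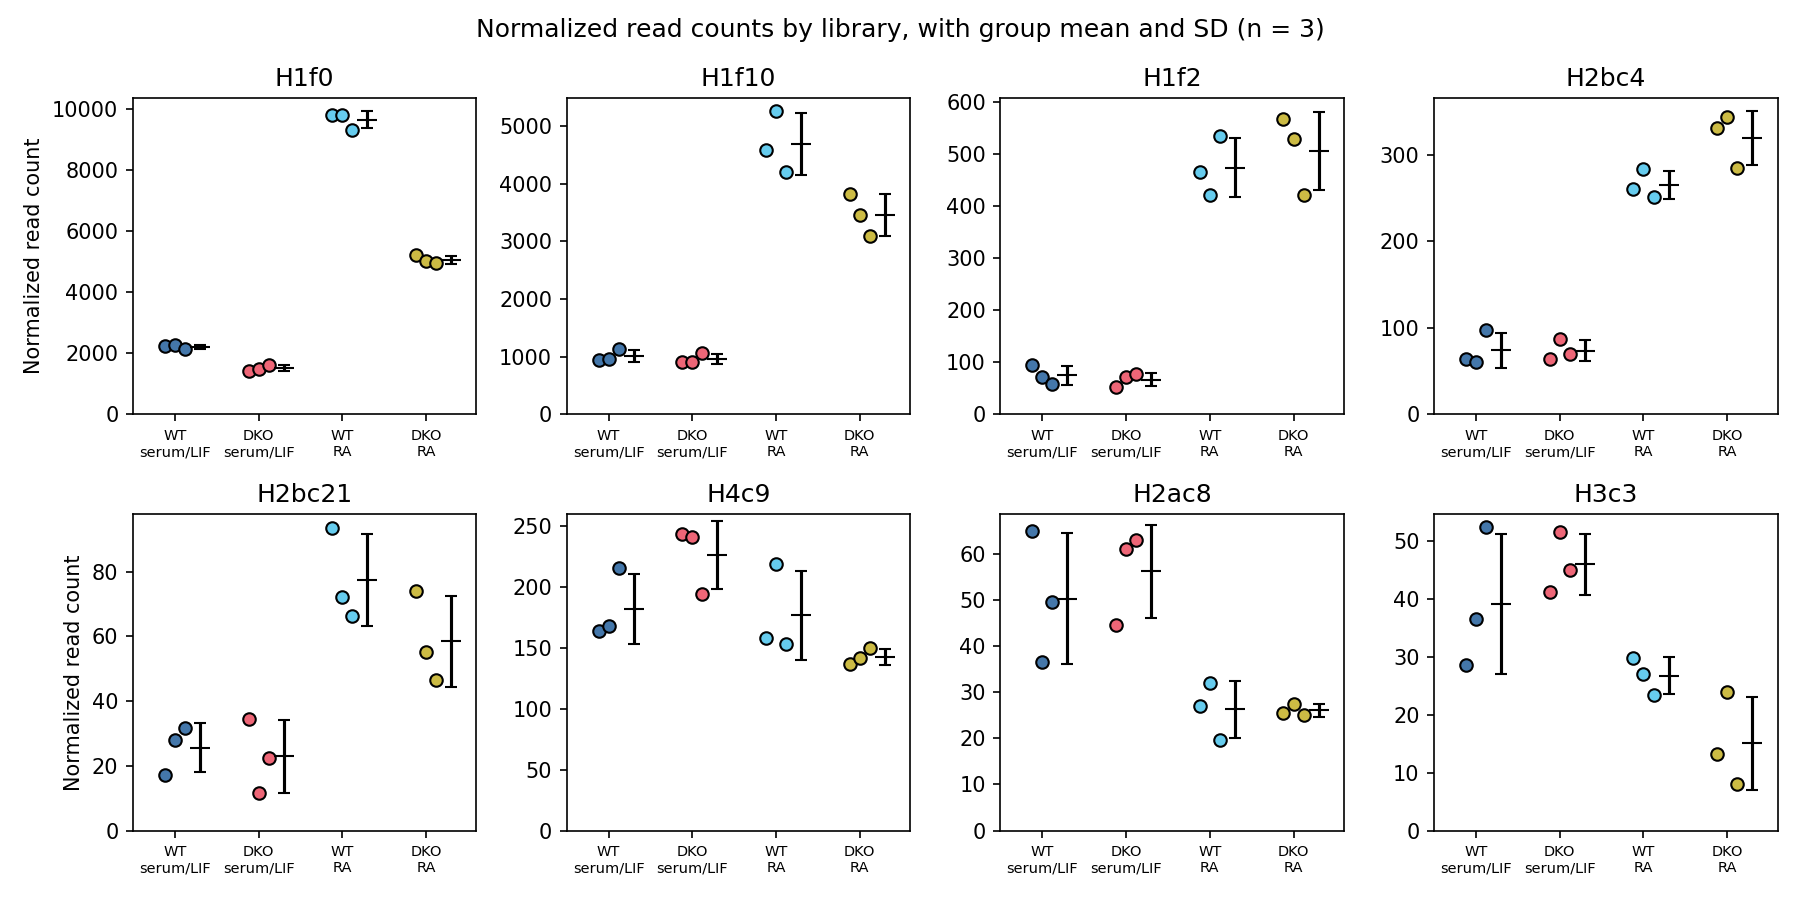
Normalized read counts of 8 histone genes in each of the 12 libraries (points), with the group mean and SD (bars, n = 3), on axes that start at 0. H1f0 is lower in DKO than in WT in both conditions, H1f10, H1f2, H2bc4 and H2bc21 are higher after RA in both genotypes, and H2ac8 is lower after RA in both.

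After RA the 2 abundant solitary linker histones were both lower in DKO than in WT. H1f0 had 9805, 9794 and 9309 in WT and 5206, 5013 and 4945 in DKO, with no overlap. The WT mean was 1.91 times the DKO mean, a log2 fold change of -0.93 ± 0.05 (SE, adjusted p = 1.8e-13). H1f10, whose levels in serum/LIF overlapped, had 4593, 5268 and 4209 in WT and 3821, 3460 and 3092 in DKO, again with every WT value above every DKO value. Its WT mean was 1.36 times the DKO mean (-0.44 ± 0.10, adjusted p = 0.0015). The third gene called was H2ac10, an H2A gene of the distal cluster whose annotated transcript ends 1 base after the stop codon, with 14.4, 10.0 and 8.97 in WT and 3.79, 0 and 7.16 in DKO (-1.81 ± 0.66, adjusted p = 0.029). That call rests on few reads. It was lost with edgeR (adjusted p = 0.075) and DESeq2 (0.057), and without WT RA replicate 1 (0.097), WT RA replicate 2 (0.051) or DKO RA replicate 2 (0.22), the last of which took its fold change to -0.93.

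These 3 of 34 called lower stand beside 20.7% of all genes called lower after RA, and none was called higher by limma, edgeR or DESeq2 (0 at an unadjusted p under 0.05), where 22.0% of all genes were. Without the filter on low values 5 histone genes were called lower. H1f2 and H2bc4, which rose with RA (below), were not called between the genotypes. H1f2 had 465, 421 and 534 in WT and 566, 529 and 421 in DKO (0.09 ± 0.18, adjusted p = 0.72). H2bc4 had 260.3, 283 and 251 and 331, 343 and 285, with each DKO value above each WT value but a fold change that did not pass (0.27 ± 0.18, adjusted p = 0.24). H4c9 had 158, 219 and 153 and 137, 141 and 149, each DKO value below each WT value (-0.29 ± 0.16, adjusted p = 0.16). The median over the 34 histone genes was -0.21, against 0.01 over all genes.

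RA moved the histone genes in both directions. In WT, 9 of 34 were called higher (41.4% of all genes were) and 3 lower (39.2% of all genes). In DKO, 6 were called higher (40.2% of all genes) and 8 lower (38.2% of all genes). The calls by histone type were as follows. Among the 6 tested H1 genes 4 were called higher in either genotype. Of the 6 tested H2A genes 2 were lower in WT and 3 in DKO. Of the 8 tested H2B genes 5 were higher and 1 lower in WT, against 2 and 1 in DKO. In DKO 3 of 6 tested H3 genes and 1 of 8 tested H4 genes were called lower as well. Whether the counts differ between the genotypes was not tested. The response of single genes was compared between the genotypes through the interaction below, where 2 genes passed. The SE of the interaction had a median of 0.75 over the 34 histone genes. Over all genes the calls were more frequent, and the SE of a typical gene was far smaller. Over all genes 51.3% of the calls in WT and 51.3% in DKO were higher, and with library totals in place of the authors' size factors these shares were 63.1% and 62.9%, since that scaling moves the median of all genes by 0.26 in WT and 0.23 in DKO. The histone genes then gave 10 higher and 0 lower calls in WT and 7 and 6 in DKO. With edgeR and with DESeq2 on the recovered reads, 7 were higher and 3 lower in WT and 6 and 9 in DKO. The share of all genes tested that was called is not given for these fits or for library totals. Their histone counts are therefore not read against a background.

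H1 genes rose most among the called histone genes in WT (H1f2, H1f10 and H1f0, in this order), and in DKO H1f2 did. H1f0 went from 2209 ± 62.7 (SD, n = 3) to 9636 ± 283 normalized reads in WT, 4.36-fold, and from 1503 ± 98.6 to 5054 ± 135 in DKO, 3.36-fold. Its fold changes on the log2 scale were 2.12 ± 0.05 (SE, adjusted p = 4.2e-22) and 1.75 ± 0.05 (SE, adjusted p = 3.0e-20). H1f10 rose 4.64-fold in WT (2.21 ± 0.10, adjusted p = 6.3e-13) and 3.61-fold in DKO (1.85 ± 0.10, adjusted p = 9.4e-12). No serum/LIF library of either gene overlapped an RA library of the same genotype. H1f2, a clustered gene with the stem-loop and the H1 box shown above, rose 6.33-fold in WT (2.67 ± 0.18, adjusted p = 1.1e-12) and 7.59-fold in DKO (2.91 ± 0.18, adjusted p = 2.4e-13).

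The remaining H1 genes had few reads. H1f3, another clustered H1 with the H1 box, went from 5.73, 6.45 and 11.2 to 14.4, 22.1 and 14.4 in WT and from 6.88, 11.7 and 6.76 to 31.3, 24.8 and 17 in DKO. H1f3 reached the filter only through its RA libraries. The DKO rise passed (1.42 ± 0.48, adjusted p = 0.0094) under each alternative that tested it. The WT rise (1.05 ± 0.48, adjusted p = 0.047) lay at the threshold: it was lost with edgeR (adjusted p = 0.064) and DESeq2 (0.055), with a pseudocount of 0.5 (0.055), with only the 2 groups in the fit (0.065), and without any 1 of 8 libraries, up to an adjusted p of 0.15 without WT RA replicate 2 and 0.13 without WT serum/LIF replicate 1. The other 6 such libraries were WT serum/LIF replicate 2 (adjusted p = 0.10), WT RA replicates 1 (0.059) and 3 (0.060) and DKO RA replicates 1 (0.055), 2 (0.057) and 3 (0.051). H1f1, in whose short annotated 3′ end no stem-loop was found, was at 26.7, 15 and 12.2 in WT serum/LIF and 10.8, 8.03 and 10.8 in WT RA, and H1f5 at 5.73, 16.1 and 20.6 and 10.8, 4.01 and 8.97. Neither passed. H1f4, H1f6 and H1f8, the last 2 known from testis and oocyte, had 90, 24 and 12 reads in all and were not tested.

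The 2 core histone genes with the clearest rise were H2B genes in whose annotated transcripts no stem-loop was found. H2bc4 went from 73.8 ± 20.4 (SD, n = 3) to 265 ± 16.4 in WT, 3.59-fold (1.86 ± 0.18, adjusted p = 1.1e-09), and from 73.6 ± 11.8 to 319.6 ± 31 in DKO, 4.34-fold (2.11 ± 0.18, adjusted p = 1.2e-10). H2bc21, of the chromosome 3 cluster, had 17.2, 27.9 and 31.8 in WT serum/LIF and 93.7, 72.3 and 66.4 in WT RA, and 34.4, 11.7 and 22.5 and 73.9, 55.1 and 46.5 in DKO. It rose 3.02-fold in WT (1.59 ± 0.35, adjusted p = 0.00025) and 2.56-fold in DKO (1.41 ± 0.35, adjusted p = 0.00088). All RA libraries of both genes lay above all serum/LIF libraries of the same genotype, and no alternative ended these 4 calls.

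**Figure D3:**
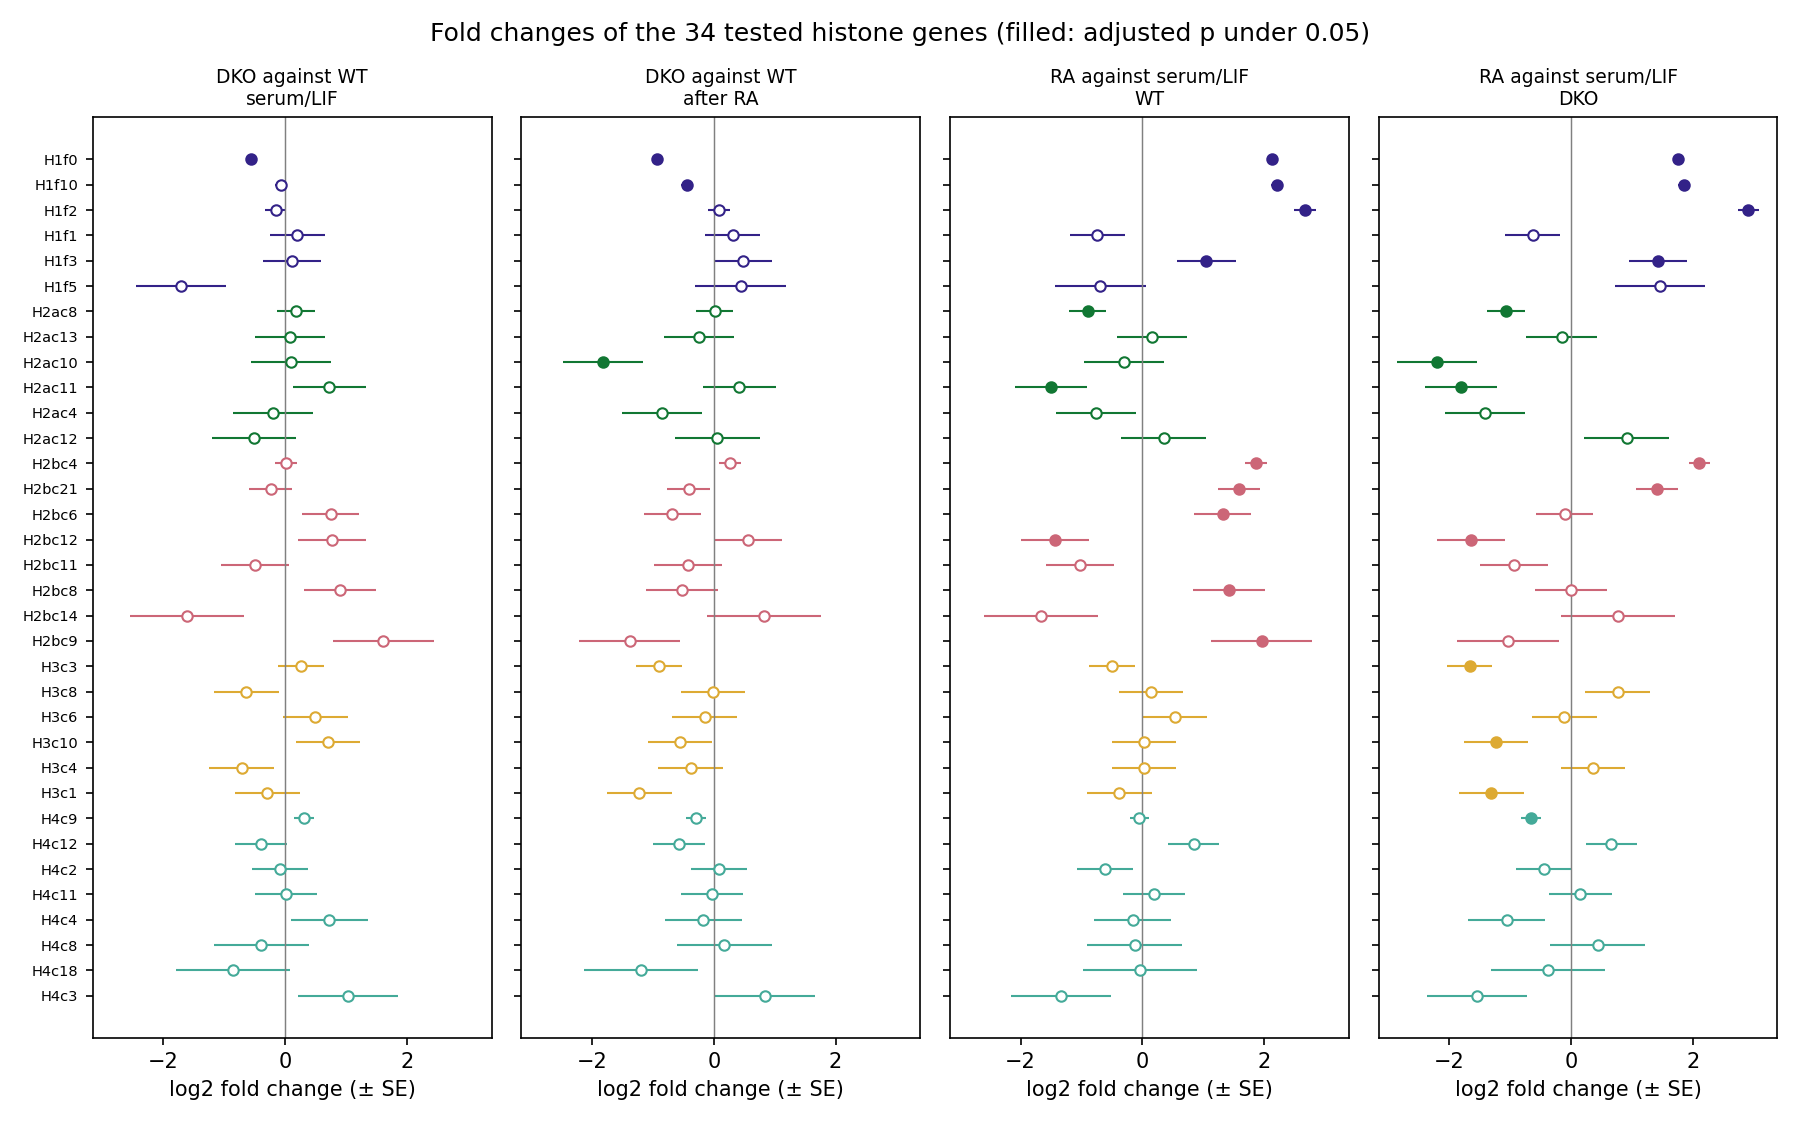
Log2 fold changes with SE of the 34 tested histone genes in the 4 comparisons, ordered by histone type and mean level, filled where the adjusted p was under 0.05. The H1 genes H1f0, H1f10 and H1f2 and the H2B genes H2bc4 and H2bc21 lie to the right after RA in both genotypes, and the error bars widen down each type as reads become fewer.

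The 3 other H2B genes called higher in WT were not among those called in DKO. H2bc6 went from 4.77, 11.8 and 18.7 to 28.8, 23.1 and 30.5 in WT (1.32 ± 0.47, adjusted p = 0.013), a call that was lost without WT serum/LIF replicate 1 (adjusted p = 0.10). H2bc8 went from 3.82, 6.45 and 3.74 to 10.8, 15.1 and 16.1 (1.42 ± 0.59, adjusted p = 0.032), and lost its call without WT serum/LIF replicate 1 (0.072) or 3 (0.074) or WT RA replicate 2 (0.070) or 3 (0.086). H2bc9 went from 7.64, 0 and 1.87 to 7.21, 14 and 10.8, with groups that overlap (1.96 ± 0.83, adjusted p = 0.035). Its call was lost with edgeR (adjusted p = 0.068) and DESeq2 (0.080), and without WT serum/LIF replicate 2 (0.20) or 3 (0.061) or WT RA replicate 2 (0.097) or 3 (0.072). Leaving out WT serum/LIF replicate 2 took its fold change to 1.19. In DKO, H2bc6 was at 18.3, 14.1 and 22.5 in serum/LIF and 14.2, 25.7 and 12.5 after RA. H2bc8 was at 10.3, 11.7 and 6.76 and then 3.79, 22 and 8.95, and H2bc9 at 11.5, 16.4 and 2.25 and then 5.69, 0.918 and 5.37, so that all 3 overlapped. Without WT RA replicate 2, H2bc8, H2bc9 and H1f3 lost their calls and H2bc6 kept its own, and the count of 9 higher in WT was 6.

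The H2A genes that were called, and 1 H2B gene, were lower with RA. H2ac8, the H2A gene with the most reads, had 64.9, 36.5 and 49.6 in WT serum/LIF and 27, 32.1 and 19.7 in WT RA, and 44.7, 61 and 63.1 and 25.6, 27.6 and 25.1 in DKO. The RA libraries lay below the serum/LIF libraries in both genotypes. Its serum/LIF mean was 1.91 times the RA mean in WT (-0.90 ± 0.31, adjusted p = 0.010) and 2.16 times in DKO (-1.07 ± 0.31, adjusted p = 0.0032). The WT call was lost without WT serum/LIF replicate 1 (adjusted p = 0.068), without WT RA replicate 3 (0.056), and with library totals (0.058), and the DKO call under no alternative. H2ac8 and H2bc8, whose starts lie 180 bases apart, were thus called in opposite directions in WT.

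H2ac11 and H2bc12, of the proximal cluster, fell in both genotypes. H2ac11 had 11.5, 8.60 and 11.2 and then 1.80, 4.01 and 3.59 in WT (-1.50 ± 0.60, adjusted p = 0.025), and 16.1, 14.1 and 24.8 and then 7.58, 1.84 and 5.37 in DKO (-1.81 ± 0.60, adjusted p = 0.0086). H2bc12 had 15.3, 23.6 and 16.8 and then 1.80, 10.0 and 10.8 in WT (-1.43 ± 0.56, adjusted p = 0.022), and 36.7, 18.8 and 47.3 and then 5.69, 9.18 and 16.1 in DKO (-1.65 ± 0.56, adjusted p = 0.0099). Groups did not overlap for either gene. H2ac11 reached the filter only through its serum/LIF libraries, as all its RA values were under 10, so its entry into the test was not independent of its fall. Both of its calls were kept with no filter on low values. Of their read-length stretches 65.5% and 60.9% are shared with other annotated genes. The WT call of H2ac11 was lost without WT serum/LIF replicate 1 (adjusted p = 0.063) or 3 (0.060) or WT RA replicate 1 (0.083), and that of H2bc12 without WT serum/LIF replicate 2 (0.077) or WT RA replicate 1 (0.19, fold change -0.76). The DKO call of H2ac11 was lost without DKO RA replicate 2 (adjusted p = 0.055), and that of H2bc12 without DKO serum/LIF replicate 3 (0.055) or DKO RA replicate 1 (0.055). With library totals H2ac11 (adjusted p = 0.052) and H2bc12 (0.053) missed the threshold in WT, as H2ac8 did, and without WT serum/LIF replicate 1 only 1 gene was called lower.

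The genes called lower with RA in DKO and not in WT were H2ac10, 3 H3 genes and H4c9, of which H4c9 also passed the test of the difference between the genotypes (below). H2ac10 went from 9.17, 18.8 and 18 to 3.79, 0 and 7.16 (-2.20 ± 0.66, adjusted p = 0.0041), a call kept under each alternative that tested it, with a fold change of -1.32 without DKO RA replicate 2. H3c3, the H3 gene with the most reads, went from 41.3, 51.6 and 45.1 to 13.3, 23.9 and 8.05 in DKO (-1.66 ± 0.37, adjusted p = 0.00029), also kept, and from 28.6, 36.5 and 52.4 to 29.7, 27.1 and 23.3 in WT, where it was not called. H3c1 went from 9.17, 11.7 and 15.8 to 3.79, 3.67 and 5.37 in DKO (-1.31 ± 0.53, adjusted p = 0.028) and H3c10 from 18.3, 11.7 and 33.8 to 5.69, 7.35 and 10.7 (-1.24 ± 0.53, adjusted p = 0.036). All 4 had no overlap between the DKO groups. H3c1 lost its call without DKO serum/LIF replicate 2 (adjusted p = 0.051) or 3 (0.094) or DKO RA replicate 1 (0.059) or 2 (0.064), and with library totals (0.059). H3c10 lost it without DKO serum/LIF replicate 1 (0.060) or 3 (0.19) or DKO RA replicate 1 (0.11) or 2 (0.071), and with library totals (0.080). The count of 8 lower in DKO was 5 without DKO serum/LIF replicate 3, DKO RA replicate 1 or DKO RA replicate 2.

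H4c9 was the 1 H4 gene called. In DKO its serum/LIF mean of 226 ± 27.8 (SD, n = 3) fell to 142 ± 6.52 after RA (-0.65 ± 0.16, adjusted p = 0.00076), while in WT it was 182 ± 28.7 and 177 ± 36.6 (-0.05 ± 0.16, adjusted p = 0.78). H4c12, the H4 gene with the most reads after it, was at 21, 10.7 and 31.8 in WT serum/LIF, 27.9, 37.1 and 43.1 in WT RA, 11.5, 11.7 and 22.5 in DKO serum/LIF and 24.6, 29.4 and 17.9 in DKO RA. H3c8, next to H3c3 in reads among the H3 genes, was at 19.1, 37.6 and 21.5 in WT serum/LIF, 14.4, 29.1 and 49.3 in WT RA, 24.1, 4.69 and 31.5 in DKO serum/LIF and 28.4, 32.1 and 22.4 in DKO RA. H2ac13, next to H2ac8 among the H2A genes, was at 16.2, 10.7 and 9.35 in WT serum/LIF, 9.01, 22.1 and 11.7 in WT RA, 20.6, 8.22 and 11.3 in DKO serum/LIF and 18, 19.3 and 3.58 in DKO RA. None of these 3 genes was called in any comparison, and the values spread widely within groups. Over the 34 histone genes the median fold change with RA was -0.01 in WT (0.04 over all genes) and -0.13 in DKO (0.04 over all genes).

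The test of the difference between the genotypes in their response to RA (the interaction) passed for 2 histone genes, both in the negative direction. For H1f0 the rise with RA was smaller in DKO, with an interaction of -0.37 ± 0.07 on the log2 scale (adjusted p = 0.00015). For H4c9 the interaction was -0.60 ± 0.23 (adjusted p = 0.047). H1f10 was close to the threshold at -0.36 ± 0.14 (adjusted p = 0.054). Of all genes tested 16.0% passed in the negative direction. In the positive direction no histone gene passed in limma, edgeR or DESeq2 (0 at an unadjusted p under 0.05), where 14.8% of all genes did. H1f0 held under all alternatives. H4c9 lost its call with no filter (adjusted p = 0.054) and without any 1 of 8 libraries, from 0.059 without DKO RA replicate 3 to 0.15 without WT RA replicate 2, the library that stood apart. The other 6 were WT serum/LIF replicates 1 (adjusted p = 0.11) and 2 (0.098), DKO serum/LIF replicates 1 (0.10) and 2 (0.097) and DKO RA replicates 1 (0.090) and 2 (0.078). The count of 2 was 1 without WT serum/LIF replicate 2, DKO serum/LIF replicate 1 or 2, or WT RA replicate 2, and 4 without WT serum/LIF replicate 3.

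Summed over the 56 clustered genes, normalized reads were 875, 810.2 and 986 in WT serum/LIF, 914, 938 and 980.1 in DKO serum/LIF, 1414, 1531 and 1503 in WT RA and 1519, 1509 and 1276 in DKO RA. The RA libraries lay above the serum/LIF libraries. Most of that rise lay in H1f2 and H2bc4, and the mean of H4c9 did not rise in either genotype. Without H1f2, H2bc4 and H4c9 the other 53 genes summed to 559.6 ± 51.8 (SD, n = 3) and 568 ± 38.5 in WT, and to 578 ± 54.3 and 467 ± 40.5 in DKO. The ratio of RA to serum/LIF for these 53 was 1.01 in WT and 0.808 in DKO, or 1.22 and 0.951 with library totals. These sums are descriptions, without a test.

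By type, the sum over the 13 H2A genes went from 135 ± 23.3 to 89.9 ± 21.9 in WT and from 144 ± 19.2 to 77.8 ± 14 in DKO. In WT the libraries overlapped, with 152, 109 and 145 in serum/LIF and 86.5, 113 and 70.0 after RA, and in DKO they did not. That of the 12 H3 genes went from 139 ± 25.5 to 137 ± 16.4 in WT, within the SD, and from 154 ± 17.5 to 106 ± 10.6 in DKO. The 14 H2B genes went up in both genotypes, from 209.6 ± 17 to 446 ± 26.5 and from 217 ± 14.7 to 464 ± 48. Without H2bc4 they went from 136 ± 9.08 to 181 ± 14.2 in WT and from 144 ± 23.7 to 145 ± 18.4 in DKO. Without H1f2 the 5 other clustered H1 genes summed to 49.7 ± 4.80 and 48.3 ± 8.21 in WT, and without H4c9 the 10 other H4 genes to 99.8 ± 17.5 and 112 ± 19.9. With library totals the RA to serum/LIF ratio was still below 1 for H2A (0.798 in WT and 0.635 in DKO), but for H3 it was 1.18 in WT and 0.807 in DKO.

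**Figure D4:**
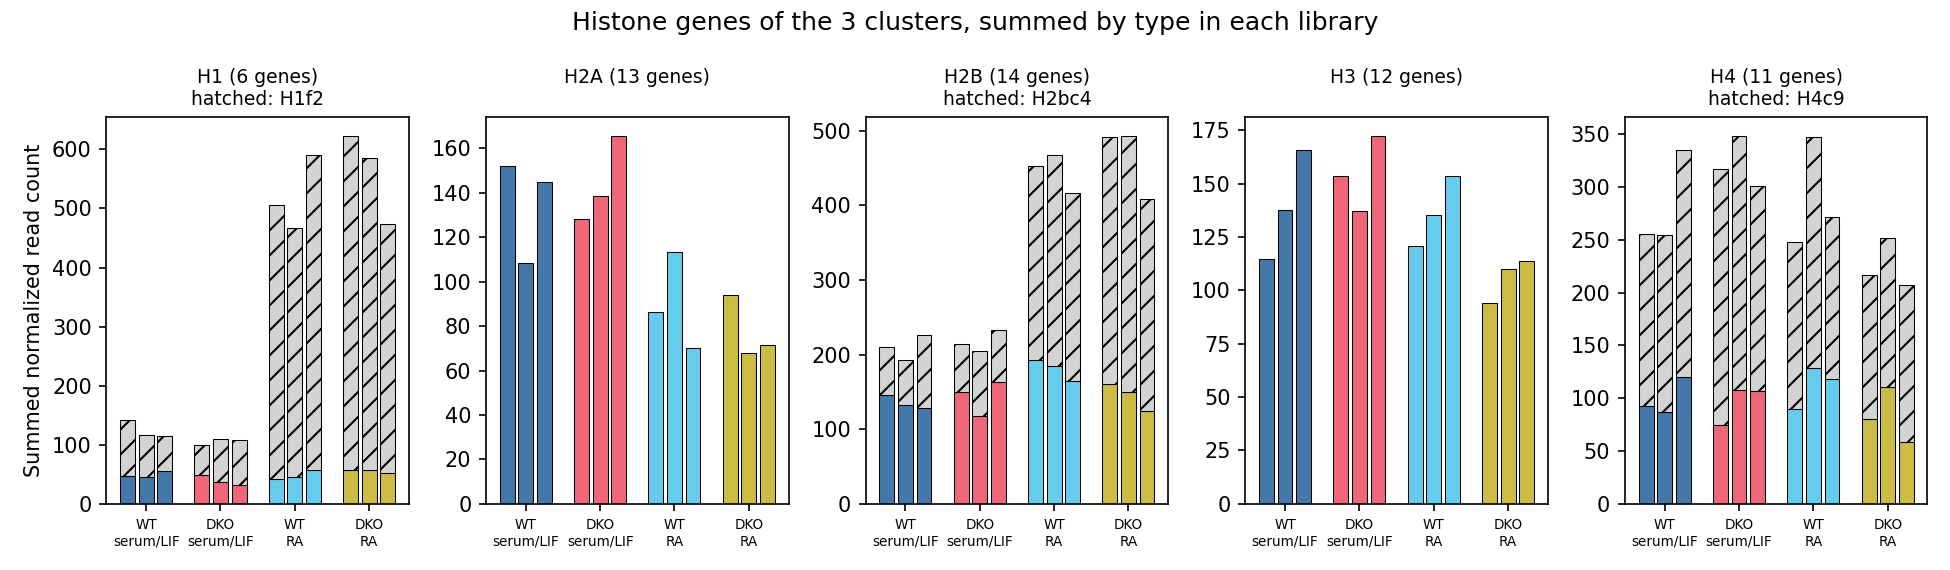
Summed normalized read counts of the clustered histone genes of each type in each library (bars, 3 per group, axes from 0), with H1f2, H2bc4 and H4c9 hatched. Most of the rise of the H1 and H2B sums after RA is the hatched gene, and the mean of the H2A sum is lower after RA in both genotypes.

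By cluster, the sum of the 29 distal genes on chromosome 13 went from 471 ± 61.3 to 1054 ± 64 in WT and from 491 ± 40.2 to 1076 ± 131 in DKO. This cluster holds H1f2 and H2bc4. The 19 proximal genes, which include H4c9, went from 373 ± 20.0 to 334 ± 57.6 and from 416 ± 21.9 to 281 ± 2.64. The 8 genes on chromosome 3, of which H2bc21 alone was tested, went from 45.4 ± 9.45 to 94.9 ± 16.5 and from 36.7 ± 14.5 to 78.2 ± 18.8. Of the 12 tested proximal genes 2 in WT and 4 in DKO were called lower with RA. Of the 19 tested distal genes 6 were called higher and 1 lower in WT, against 3 and 4 in DKO. Over all genes 41.4% were called higher and 39.2% lower in WT, and 40.2% and 38.2% in DKO, so that no share of either cluster was above the background, and the clusters were not compared by a test.

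Of the 59 genes, 20 formed 10 divergent pairs whose starts lie within 1000 bases of each other. The reads of partners, not scaled to length, are set side by side. H2ac6 had 40 reads over the 12 libraries beside 2311 of H2bc4, 240 bases away, and H2ac20 had 28 beside 578 of H2bc21, 192 bases away. H2ac8 had 471 beside 122 of H2bc8. In the other 7 pairs both partners held between 35 and 204 reads.

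Other genes lie between members of the clusters. Of these 4, Zfp184, Prss16 and Hfe were tested and Pom121l2 was not. Hfe, which encodes a regulator of iron uptake in the distal cluster, had 131, 106 and 97.8 in WT RA and 20.9, 16.5 and 7.16 in DKO RA (-2.93 ± 0.37, adjusted p = 7.8e-07), and was lower in DKO in serum/LIF too (-1.22 ± 0.37, adjusted p = 0.014). Prss16, a thymic serine protease gene of the proximal cluster, was lower in DKO in serum/LIF (-0.96 ± 0.17, adjusted p = 0.00010), with 143, 134 and 123 in WT and 76.8, 65.7 and 62 in DKO. H1f0, on another chromosome, was the 1 histone gene called in serum/LIF.

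The genes of histone mRNA 3′ processing moved mostly down with RA. Counts of this and the next lists stand beside 41.4% of all genes higher and 39.2% lower with RA in WT, and 40.2% and 38.2% in DKO. Of 21 tested genes of 3′ processing 17 (81.0%) were lower in WT and 16 (76.2%) in DKO, with 1 and 3 higher and medians of -0.46 and -0.49. Slbp, the stem-loop binding protein, had 5360, 5398 and 5450 normalized reads in WT serum/LIF and 4368, 4293 and 4054 in WT RA. Its fold change was -0.35 ± 0.04 in WT (adjusted p = 1.0e-07) and -0.25 ± 0.04 in DKO (adjusted p = 1.5e-05). Zfp473, a zinc finger protein of the U7 complex, was lower with RA in WT (-1.49 ± 0.08) and in DKO (-0.96 ± 0.08), and its interaction was 0.53 ± 0.11 (adjusted p = 0.00064). Lsm10 and Lsm11, the U7-specific Sm-like proteins, were higher in DKO: Lsm11 was higher in DKO than in WT in serum/LIF (0.19 ± 0.07, adjusted p = 0.041) and after RA (0.40 ± 0.07, adjusted p = 5.7e-05), and Lsm10 after RA (0.31 ± 0.10, adjusted p = 0.012). With library totals 12 genes of the list were lower and 4 higher in WT.

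Of 13 genes of histone mRNA translation and decay 9 were lower and 3 higher with RA in either genotype, which became 6 lower and 5 higher in WT with library totals. Eri1, the exonuclease that trims the stem-loop end, had 4794, 4281 and 4602 in WT serum/LIF and 3091, 3183 and 3106 in WT RA, a fold change of -0.54 ± 0.05 (adjusted p = 8.0e-11). Of 11 genes of histone gene transcription 6 (54.5%) were lower in WT, and 7 lower and 1 higher in DKO. That direction is not stable to scaling, since with library totals 5 were higher and 3 lower in WT, and the median went from -0.17 to 0.09. Npat itself had 2834, 2729 and 2490 in WT serum/LIF and 2779, 2666 and 3078 in WT RA and was not called there, but was higher with RA in DKO (0.24 ± 0.06, adjusted p = 0.00052). Casp8ap2, a partner of NPAT in the histone locus body, was lower in DKO in serum/LIF (-0.15 ± 0.06, adjusted p = 0.040), and Hinfp, which binds H4 promoters, was called with RA in DKO (-0.18 ± 0.08, adjusted p = 0.034). Ccne1, the cyclin that with CDK2 activates NPAT, was lower in DKO in serum/LIF (-0.39 ± 0.04, adjusted p = 1.2e-08) and lower with RA in WT (-1.47 ± 0.04) and DKO (-1.29 ± 0.04).

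S phase and DNA replication genes went down with RA, and cell cycle inhibitors up. Of 31 replication genes 28 were lower and 3 higher in WT, and 27 lower in DKO, with medians of -0.61 and -0.56. With library totals 23 were lower in either genotype, and 4 and 6 higher. Mcm10, a replication initiation factor, had a fold change of -1.53 ± 0.04 in WT (adjusted p = 2.9e-20), and Pcna, the sliding clamp of the replication fork, one of -1.03 ± 0.04 in DKO (adjusted p = 2.9e-17). Of 10 cell cycle inhibitors 9 rose in WT and 8 in DKO (10 in either with library totals), among them Cdkn2a by 2.33 ± 0.12 and 1.83 ± 0.12 and Cdkn1a by 0.48 ± 0.05 and 0.85 ± 0.05. In serum/LIF 11 of the 31 replication genes were lower in DKO than in WT and 1 higher, with a median of -0.10. The share lower, 35.5%, stands beside 15.4% of all genes. With library totals only 6 of the 31 were lower and 1 higher, so the size of this share depends on the scaling. The part of these lists in the levels of the histone genes was not tested.

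Of 25 histone chaperone and import genes 19 were lower and 6 higher with RA in WT, and 17 and 5 in DKO. With library totals these were 12 and 8 in WT and 14 and 7 in DKO. Nasp, a chaperone of H3, H4 and linker histones, was lower with RA in WT (-1.05 ± 0.03) and in DKO (-0.93 ± 0.03). Chaf1a, the large subunit of the assembly factor CAF-1, rose with RA by 0.80 ± 0.04 in WT and by 0.27 ± 0.04 in DKO, an interaction of -0.53 ± 0.05 (adjusted p = 5.1e-08). After RA 13 of the 25 (52.0%) were lower in DKO than in WT and 4 (16.0%) higher, where 20.7% of all genes were lower and 22.0% higher. Of 10 replication-independent histone variants 5 were higher and 4 lower with RA in WT, or 6 and 2 with library totals. H2az1, an H2A.Z gene, was lower with RA in WT (-1.33 ± 0.04) and in DKO (-1.06 ± 0.04), and Macroh2a2, a macroH2A gene, rose by 0.74 ± 0.06 and 1.01 ± 0.06. H2ax, which encodes the variant phosphorylated at DNA breaks, was higher in DKO than in WT in serum/LIF (0.52 ± 0.07, adjusted p = 9.2e-06) and after RA (0.41 ± 0.07, adjusted p = 0.00010).

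**Figure D5:**
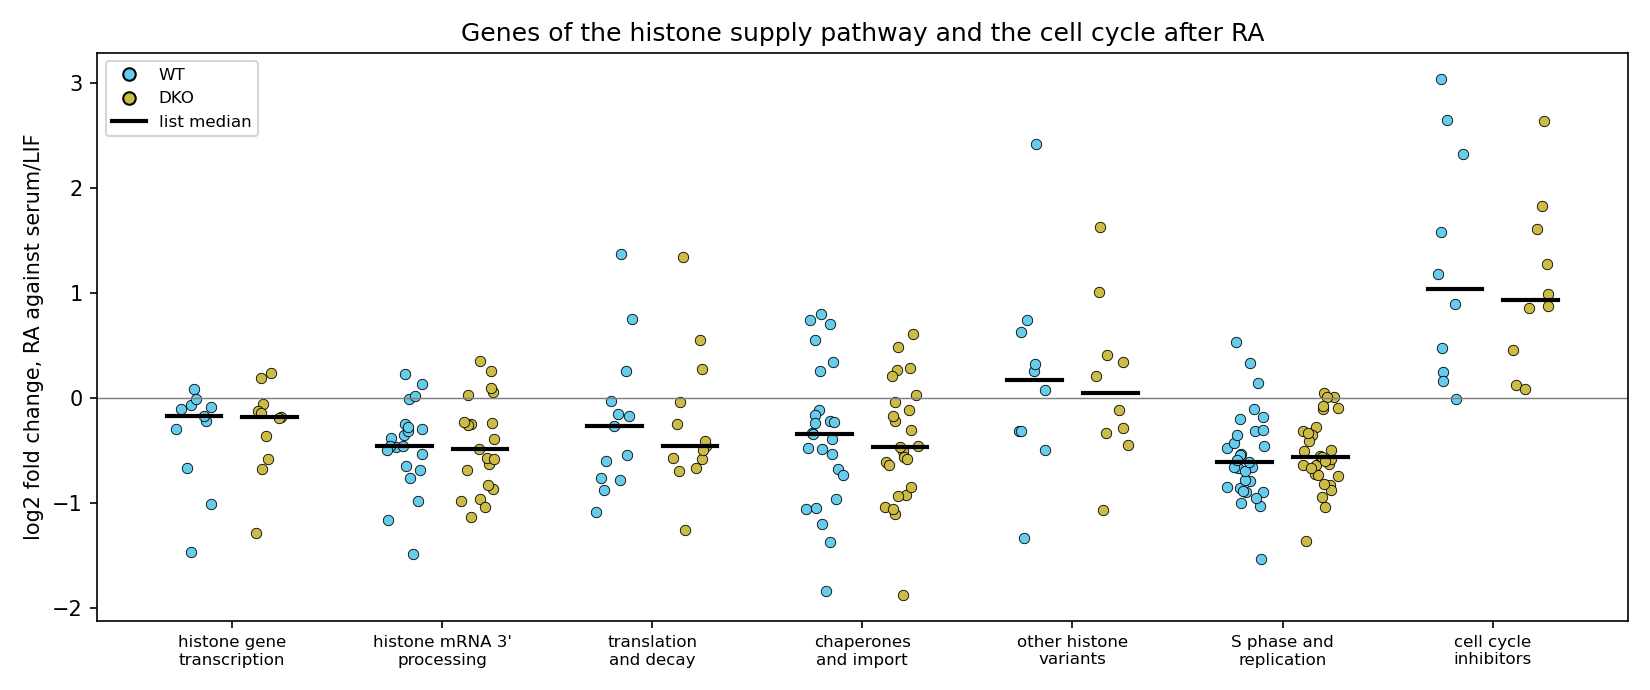
Log2 fold change with RA in WT and in DKO of each tested gene of 7 lists (points) with the list median (bar). The S phase and 3′ processing lists lie mostly below 0, and the cell cycle inhibitors mostly above it, in both genotypes.

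In the authors' deposited table, which tests the same comparisons with DESeq2, 1 histone gene was lower in DKO in serum/LIF (H1f0) and 4 were lower after RA (H1f0, H1f10, H2bc13 and H4c1). For RA in WT the authors' deposited table lists 8 higher and 4 lower, and in DKO 6 higher and 10 lower, at an adjusted p under 0.05. The 6 higher in DKO in the authors' deposited table are H1f0, H1f10, H1f2, H1f3, H2bc4 and H2bc21.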

How the data were processed

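The labels describe extraction of total RNA and paired-end reads of 150 bases from 12 libraries, but list the molecule as genomic DNA and the library source as genomic, and the series is titled RNA-seq. Reads were trimmed with Trim Galore 0.6.10, aligned with STAR 2.7.11b to mm10, counted with featureCounts of Subread 2.0.6 and normalized with DESeq2 1.44.0, per the submitters' processing notes. The sources used here give no library preparation, strand setting or treatment of reads that map to several genes. The deposited values are a signal, read counts divided by 1 size factor per library, and all values came out whole (within 0.01 reads) when this was undone. The deposited table also holds the authors' log2 fold changes and adjusted p-values from DESeq2, which are printed only where named as such.

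All 12 libraries entered 1 limma 3.58.1 fit (R 4.3.3) on log2(value + 1), with the empirical Bayes steps set to trend and robust. It ran over the 15750 genes that reached a value of 10 in 3 libraries or more, and 2151 genes fell below this filter. P-values were adjusted by Benjamini-Hochberg over all genes tested, and calls had an adjusted p under 0.05. Alternatives were edgeR 4.0.16 (quasi-likelihood) and DESeq2 1.42.0 on the recovered reads, other pseudocounts, filters and scalings, the replicate number as a block, only the 2 groups compared in the fit, and each library left out in turn. Only the limma fit was checked on simulated data, and only for DKO against WT in serum/LIF.

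The histone genes and the gene lists were chosen with earlier results of these data known. Named by rule were the 2 tested genes with the highest mean per histone type, the called genes with the largest fold change among those with a mean of 100 or more and groups that do not overlap, the tested genes outside the clusters, Slbp, Npat, Casp8ap2, Hinfp, Lsm10, Lsm11 and Eri1, the listed genes with the smallest adjusted p, and called genes between histone genes. The other histone genes named, all of low level, were chosen after their values were seen. Stem-loops were searched as 6 paired bases, opening with GG, around 4 loop bases that open with TT in GENCODE M21 transcripts.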

Additional observations from a re-analysis of the deposited data

Results flagged for a closer look

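In 2 histone genes the response to RA differed between the genotypes by a test of the difference itself (limma, interaction term, adjusted over all genes tested). For H1f0 the interaction was -0.37 on the log2 scale, with a 4.36-fold rise in WT and a 3.36-fold rise in DKO, and it passed under all 21 alternatives that tested it. For H4c9 the interaction was -0.60, the RA means being below the serum/LIF means in DKO by more than the spread and within it in WT. Its call was lost under 10 of 21 alternatives, among them leaving out WT RA replicate 2.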

How the results depend on the processing

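Over 22 alternatives, the 32 called results of single histone genes gave 688 values, of which 626 kept their call, 62 missed the threshold and 0 changed sign. The report names the calls that were lost. In serum/LIF the histone genes called lower in DKO ranged from 1 to 2 and higher from 0 to 1 when each library was left out. After RA the lower calls ranged from 2 to 3 and the higher calls from 0 to 0, with 5 lower without a filter. For RA in WT, higher calls ranged from 6 to 9 and lower calls from 1 to 4. With a filter at a value of 50, which 7 histone genes passed, these were 5 and 1, and with library totals 0 were lower. For RA in DKO, higher calls ranged from 6 to 7 and lower calls from 5 to 9, with 2 lower at the filter of 50. Negative interaction calls ranged from 1 to 4 and positive ones from 0 to 1, with 4 negative at a pseudocount of 5 or without a filter.

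Results that were not called changed sign as follows. H1f10 in serum/LIF ranged from -0.16 to 0.012 and H1f2 from -0.31 to 0.022 when each library was left out. H2bc4 in serum/LIF ranged from -0.11 to 0.23, and was -0.010 with edgeR and -0.011 with DESeq2. The RA response of H4c9 in WT ranged from -0.21 to 0.074, and was 0.21 with library totals. The H1f10 interaction passed with a pseudocount of 5, with TMM and library total scaling, and without WT serum/LIF replicate 3, WT RA replicate 3 or DKO RA replicate 1.

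Replicate numbers did not pair the libraries: deviations from group means correlated between -0.03 and 0.05 for the 18 same-numbered pairs and between -0.03 and 0.03 for the 36 others. With the replicate number as a block, the H1f3 rise in WT (adjusted p = 0.055) and the H4c9 interaction (adjusted p = 0.056) missed the threshold, 8 histone genes were called higher in WT and 1 interaction was called. With about 10 reads per gene and library for most clustered genes, the median SE of 0.53 on the log2 scale sets the size of change that the test detects. The cause of counts that moved between alternatives was not tested.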

Other observations

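Of the genes that lie between histone genes, Hfe had an interaction of genotype and RA of -1.72 (limma, adjusted p = 0.016), with group means of 53.0 and 24.2 normalized reads in WT and DKO serum/LIF and 112 and 14.9 after RA. Zfp184, a zinc finger gene of the proximal cluster, was lower in DKO than in WT after RA (-0.26, adjusted p = 0.032) and higher with RA in WT (0.24, adjusted p = 0.025).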
